A study of Mus musculus with 12 samples.

Results

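The genes described here are 10 genes of the photoreceptor that end the response to light and restore the dark state: Rgs9, Rgs9bp, Gnb5, Grk1, Rcvrn, Guca1a, Guca1b, Gucy2e, Gucy2f and Slc24a1. They were chosen by name, from knowledge of the pathway and with earlier results of these data known, and each matched 1 of the 55487 genes in the expression table. Rgs9 had been chosen partly for its fall after NMDA in wild type retinas, so that contrast is given below as a description, without a test. The comparisons with wild type retinas under PBS share the PBS libraries of that contrast. They are tested below, but for Rgs9 their p-values are not independent of its choice. All 10 were among the 16471 genes that passed the filter on low values, a mean above 1 FPKM (fragments scaled to transcript length and to the mapped fragments of the library) in at least 1 of the 6 groups. The filter removed none of them, since the lowest group mean of any of the 10 was 1.70 FPKM. It did set which other genes entered the fit and the adjustment of p, and some members' calls changed without it.

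RNA was sequenced from 12 libraries of mouse retina, 2 in each of 6 groups. WT retinas came from C57BL/6J (B6J) mice, with no vector named for them, shPax6 retinas from eyes injected with 2 μL of AAV2.7m8 carrying pU6-shPax6-GFP, and JNK3 KO retinas from Jnk3-/- mice, which lack the kinase in every cell. Into the vitreous of each kind went either 1 μL PBS or 1 μL NMDA at 40 mM (40 nmol), so that PBS is the control within each kind. The mice used for knockdown are described as 2 months old; the age of the Jnk3-/- mice, the hour of collection and the interval from NMDA to collection are not given in the sources used here. In the vector a U6 promoter drives the hairpin, which restricts it to no cell type, and no library with the shScramble vector is among the 12, so infection and knockdown cannot be told apart. The authors describe the route of the vector as subretinal in their methods and as intravitreal in their results. Between vector and immunostaining they give 2 weeks in the methods and 3 weeks in the results. Each library pooled more than 3 retinas, and no label says that the 2 libraries of a group came from separate mice, so p-values measure only the spread between these libraries, which may be technical.

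In rods and cones, light drives the visual pigment to activate transducin, which switches on phosphodiesterase 6, lowers cyclic GMP and closes cation channels. The response ends when the pigment is phosphorylated and capped by arrestin, when transducin hydrolyses its GTP, and when cyclic GMP is made again. Grk1 encodes the kinase that phosphorylates the pigment, and Rcvrn encodes recoverin, which holds that kinase back while calcium is high. Rgs9 encodes the GTPase-activating protein of transducin, which works in a complex with the G protein subunit encoded by Gnb5 and the membrane anchor encoded by Rgs9bp. Gucy2e and Gucy2f encode the guanylate cyclases of the outer segment, Guca1a and Guca1b encode the calcium-sensing proteins (GCAP) that activate them when calcium falls, and Slc24a1 encodes the rod exchanger that carries calcium out.

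RefSeq promoter sequences of the GRCm38.p6 build (250 bases before to 50 after a start site) were found for 7 of the 10 genes: Grk1, Slc24a1, Gnb5, Gucy2e, Rgs9, Guca1a and Gucy2f. The 250 bases before the start of Rgs9 and Gucy2f are shown because these genes had by far the lowest levels in NMDA-injected WT retinas relative to PBS. Both are on the minus strand, at chr11:109298182-109298431 and chrX:142196937-142197186, and are written 5′ to 3′ along the gene. Capitals mark the core of the site bound by CRX and OTX2 (TAATCC or its complement GGATTA) and the core of the half-site bound by NRL (TGCTGA or its complement TCAGCA), transcription factors of photoreceptors.
Rgs9: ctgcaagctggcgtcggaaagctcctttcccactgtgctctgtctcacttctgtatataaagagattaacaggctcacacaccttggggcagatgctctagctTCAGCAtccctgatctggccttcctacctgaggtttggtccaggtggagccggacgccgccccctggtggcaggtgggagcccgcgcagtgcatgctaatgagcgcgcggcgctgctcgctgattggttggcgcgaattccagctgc
Gucy2f: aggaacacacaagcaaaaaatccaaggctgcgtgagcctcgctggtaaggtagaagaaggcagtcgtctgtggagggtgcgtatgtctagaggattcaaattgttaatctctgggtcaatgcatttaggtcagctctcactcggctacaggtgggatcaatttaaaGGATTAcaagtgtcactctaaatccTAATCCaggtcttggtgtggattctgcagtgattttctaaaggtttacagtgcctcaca

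The Rgs9 stretch is 59.6% G or C and holds 1 NRL core and no CRX core, whereas the Gucy2f stretch is 45.2% G or C and holds 2 CRX cores and no NRL core. For comparison, the CRX core also lies close to the start of the partner cyclase and of its activator, each on the minus strand.
Gucy2e, chr11:69237047-69237076: atcggcttggagGGATTAagggctgcagcg
Guca1a, chr17:47400646-47400675: cctgttaagaagGGATTAgcagactgcaaa

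With both strands searched over each whole promoter, the letters TAATCC were found in 4 of the 7 promoters (Gnb5, Guca1a, Gucy2e and Gucy2f) and in 7.1% of 32851 promoters of that length. The letters TGCTGA were found in 2 of 7 (Grk1 and Rgs9) and in 19.5% of all promoters. Rgs9 and Gucy2f thus shared neither core in these windows, and Guca1a and Gucy2e both held the CRX core. These matches describe letters only.

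Before the members are described, the labels and libraries were checked. Pax6 was at 173 and 177 FPKM in WT PBS libraries and at 94.6 and 92.8 in shPax6 PBS libraries (log2 difference -0.90, limma adjusted p = 6.04e-05), and Mapk10, which encodes JNK3, was at 42.8 and 50.7 against 9.47 and 8.75 in JNK3 KO PBS libraries (log2 difference -2.34, limma adjusted p = 0.0215). After NMDA neither gene was lower in the libraries labelled for its loss. Pax6 then had 67.5 and 58.7 FPKM in shPax6 libraries, above the 55.4 and 53.8 of WT libraries, and Mapk10 had 6.65 and 13.8 in JNK3 KO libraries, overlapping the 8.98 and 6.00 of WT libraries, so these genes check the labels only under PBS. Mapk10 was between 8.85 and 21.3 in shPax6 libraries. The 8 photoreceptor identity markers summed to between 4507 and 7242 FPKM in the 12 libraries, with none at 0. The 2 WT NMDA libraries stood apart: their FPKM summed to 805627 and 820180, against 541210 to 576922 in the other 10, and their difference from PBS followed gene length. FPKM do not give the number of fragments behind a value, so neither depth nor counting error is known. In these bulk samples fewer cells of a type and less RNA per cell cannot be told apart.

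In the GTPase complex, Rgs9 varied widely between libraries, Rgs9bp less and Gnb5 hardly at all. Rgs9 (chromosome 11, 109225355 to 109298129, GRCm38) was at 217 and 197 FPKM in WT PBS libraries, 372 and 349 in shPax6 PBS libraries and 164 and 168 in JNK3 KO PBS libraries. After NMDA it was at 11.3 and 19.3 in WT, 293 and 299 in shPax6 and 212 and 209 in JNK3 KO retinas. Both WT NMDA libraries lay below every other library, and the highest library held 33.0 times the FPKM of the lowest. The log2 difference between NMDA and PBS in WT retinas was -3.80 (standard error 0.19), and it was -3.70 after each library's trend on gene length was removed, -4.38 on TPM (every library rescaled to one sum) and -4.15 with libraries centred on 9 rod activation genes.

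Rgs9 did not pass the test after NMDA in the other retinas. The log2 difference was -0.28 in shPax6 retinas (standard error 0.19, limma adjusted p = 0.3, positive at 0.39 when centred on rod activation genes) and 0.34 in JNK3 KO retinas (standard error 0.19, limma adjusted p = 0.315). For Rgs9 the 2 WT NMDA libraries were proportionally further apart than the 2 libraries of any other group, and all groups share 1 estimate of the spread. A fit without them, chosen after seeing the data, gave limma adjusted p = 0.00791 and 0.0106 for the same values, and leaving out either WT NMDA library alone gave 0.00857 and 0.00866 in shPax6 and 0.0115 and 0.0114 in JNK3 KO retinas.

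Rgs9bp, the membrane anchor, is a gene of 1 exon on chromosome 7 (35578993 to 35585582). It was at 88.3 and 84.8 FPKM in WT PBS, 118.1 and 117.8 in shPax6 PBS and 87.3 and 93.1 in JNK3 KO PBS libraries. After NMDA it was at 41.9 and 43.8 in WT, 63.1 and 68.3 in shPax6 and 88.6 and 87.1 in JNK3 KO retinas. Rgs9bp therefore fell in shPax6 retinas (log2 difference -0.85, standard error 0.06, limma adjusted p = 1.45e-05), and its NMDA and PBS libraries overlapped in JNK3 KO retinas (log2 difference -0.04, 95% interval -0.17 to 0.10, limma adjusted p = 0.785).

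Gnb5, on chromosome 9 (75306288 to 75345876), was the steadiest of the 10, with the highest library at 1.4 times the lowest. It was at 336 and 346 FPKM in WT PBS, 466 and 451 in shPax6 PBS and 368 and 373 in JNK3 KO PBS libraries, and after NMDA at 356 and 342, 421 and 419, and 331 and 333. The WT libraries overlapped (log2 difference 0.03, standard error 0.04). Gnb5 also serves other R7 RGS proteins in bipolar and other retinal neurons, so its level is not that of photoreceptors alone, and its exons share 248 bases with the antisense gene Gm19531 (mean 0.62 FPKM), whose reads can be told apart only if strand was used in counting, which the sources used here do not say.

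The ratio of Rgs9 to its partners shows the same. Rgs9 FPKM were 2.46 and 2.32 times those of Rgs9bp in WT PBS libraries and 0.269 and 0.44 times in WT NMDA libraries, while the ratio lay between 1.80 and 4.65 in the other 8 libraries. Against Gnb5, the ratio was 0.645 and 0.57 in WT PBS, 0.0316 and 0.0563 in WT NMDA and between 0.446 and 0.798 in the other 8 libraries.

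The guanylate cyclases differed in the same way. Gucy2f (chromosome X, 142081160 to 142196931) was at 19.6 and 18.4 FPKM in WT PBS, 30.5 and 33.0 in shPax6 PBS and 14.2 and 14.8 in JNK3 KO PBS libraries. After NMDA it was at 1.37 and 2.02 in WT, 22.5 and 22.9 in shPax6 and 21.5 and 21.5 in JNK3 KO retinas. The WT NMDA libraries were again the lowest of all, with a log2 difference from PBS of -3.43 (standard error 0.15). It was -1.92 after the length correction and -2.9 with 1 rather than 0.1 added to FPKM. Gucy2f rose in JNK3 KO retinas after NMDA (log2 difference 0.56, standard error 0.15, limma adjusted p = 0.0483) and fell in shPax6 retinas (log2 difference -0.48, standard error 0.15, limma adjusted p = 0.0407, positive at 0.19 when centred on rod activation genes). Each of these calls was lost when any 1 of the 10 libraries other than WT NMDA was left out, with limma adjusted p from 0.0634 to 0.214 in JNK3 KO and from 0.0641 to 0.15 in shPax6 retinas, and with the length correction (0.26 and 0.095).

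Gucy2e (chromosome 11, 69218117 to 69237036), the more abundant cyclase, was at 89.0 and 87.3 FPKM in WT PBS, 153.7 and 145 in shPax6 PBS and 85.3 and 87.1 in JNK3 KO PBS libraries, and after NMDA at 46.8 and 53.9, 105.7 and 105.6, and 97.7 and 95.4. It fell in shPax6 retinas (log2 difference -0.50, standard error 0.07, limma adjusted p = 0.000668, positive at 0.17 when centred on rod activation genes). Gucy2e FPKM were 4.54 and 4.75 times those of Gucy2f in WT PBS libraries, 34.2 and 26.7 times in WT NMDA libraries and between 4.40 and 5.99 times in the other 8. By contrast, Rgs9 FPKM stayed between 8.22 and 13.1 times those of Gucy2f in all 12 libraries, although the highest library was 33.0 times the lowest for Rgs9 and 24.1 times for Gucy2f. This holds for deposited FPKM, and the genes differ in length (2380 and 8122 bases). After the length correction their WT differences between NMDA and PBS were -3.7 and -1.92.

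The calcium sensors moved the other way in WT retinas on deposited FPKM. Guca1a and Guca1b lie tail to tail on chromosome 17 (47394558 to 47400584 on the minus strand and 47385393 to 47392967 on the plus strand), 1590 bases apart. Guca1a was at 698 and 725 FPKM in WT PBS, 1311 and 1220 in shPax6 PBS and 936 and 918 in JNK3 KO PBS libraries. After NMDA it was at 1731 and 1759 in WT, 695 and 746 in shPax6 and 602 and 585 in JNK3 KO retinas. Both WT NMDA libraries were the highest of the 12, whereas in the other retinas the NMDA libraries lay below PBS. Guca1a fell in shPax6 retinas (log2 difference -0.81, standard error 0.05, limma adjusted p = 5.77e-06) and in JNK3 KO retinas (-0.64, standard error 0.05, limma adjusted p = 0.000116), and neither the sign nor the call changed in any of 20 alternatives.

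Guca1b was at 629 and 663 FPKM in WT PBS, 852 and 788 in shPax6 PBS and 796 and 782 in JNK3 KO PBS libraries, and after NMDA at 913 and 919, 372 and 401, and 579 and 565. Its shPax6 NMDA libraries were the lowest of all. It fell in shPax6 retinas (log2 difference -1.09, standard error 0.05, limma adjusted p = 1.73e-06) and in JNK3 KO retinas (-0.47, standard error 0.05, limma adjusted p = 0.000928), also in all 20 alternatives. Guca1a FPKM were 1.11 and 1.09 times those of Guca1b in WT PBS libraries, 1.90 and 1.91 times in WT NMDA, 1.54 and 1.55 in shPax6 PBS, 1.87 and 1.86 in shPax6 NMDA and between 1.04 and 1.18 in JNK3 KO libraries. These are ratios of deposited FPKM, and the genes differ in length (873 and 1662 bases). After the length correction their WT differences between NMDA and PBS were 0.23 and 0.13.

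The pigment kinase and its calcium-dependent brake had opposite signs in WT retinas on deposited FPKM (-0.83 for Grk1 and 1.23 for Rcvrn) and the same sign after the length correction (0.59 and 0.31). Grk1 (chromosome 8, 13405081 to 13421951) was at 194 and 189.9 FPKM in WT PBS, 324 and 336 in shPax6 PBS and 219 and 226 in JNK3 KO PBS libraries, and after NMDA at 100.9 and 115, 236 and 235, and 229.9 and 230.5. Rcvrn (chromosome 11, 67695326 to 67703333) was at 656 and 672 in WT PBS, 1035 and 992 in shPax6 PBS and 911 and 844 in JNK3 KO PBS libraries, and after NMDA at 1533 and 1586, 1084 and 1069, and 612 and 619.8. Grk1 had its lowest libraries and Rcvrn its highest in NMDA-injected WT retinas. The FPKM of Grk1 were 0.295 and 0.282 times those of Rcvrn in WT PBS libraries, 0.0658 and 0.0725 times in WT NMDA and between 0.218 and 0.375 times in the other 8.

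In shPax6 retinas NMDA lowered Grk1 (log2 difference -0.49, standard error 0.06, limma adjusted p = 0.000367, positive at 0.18 when centred on rod activation genes), and Rcvrn was at 0.09 (standard error 0.04, limma adjusted p = 0.182). In JNK3 KO retinas the reverse held on deposited FPKM: Rcvrn fell (log2 difference -0.51, standard error 0.04, limma adjusted p = 0.000276, called in all 20 alternatives) and Grk1 was at 0.05 (95% interval -0.09 to 0.18, limma adjusted p = 0.703). After the length correction Rcvrn was at -0.16 in shPax6 retinas (limma adjusted p = 0.0105) and Grk1 at -0.19 in JNK3 KO retinas (limma adjusted p = 0.0506). Centred on rod activation genes, Grk1 was called higher in JNK3 KO retinas (0.38, limma adjusted p = 0.00279).

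Slc24a1 (chromosome 9, 64922861 to 64951607), the calcium exchanger, was at 229 and 230.1 FPKM in WT PBS, 318 and 319.6 in shPax6 PBS and 246 and 256 in JNK3 KO PBS libraries. After NMDA it was at 117 and 117.5 in WT, 227 and 228 in shPax6 and 224 and 228 in JNK3 KO retinas, so that the NMDA libraries lay below PBS in each kind of retina. It fell in shPax6 retinas (log2 difference -0.49, standard error 0.04, limma adjusted p = 2.87e-05, positive at 0.18 when centred on rod activation genes).

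**Figure D1:**
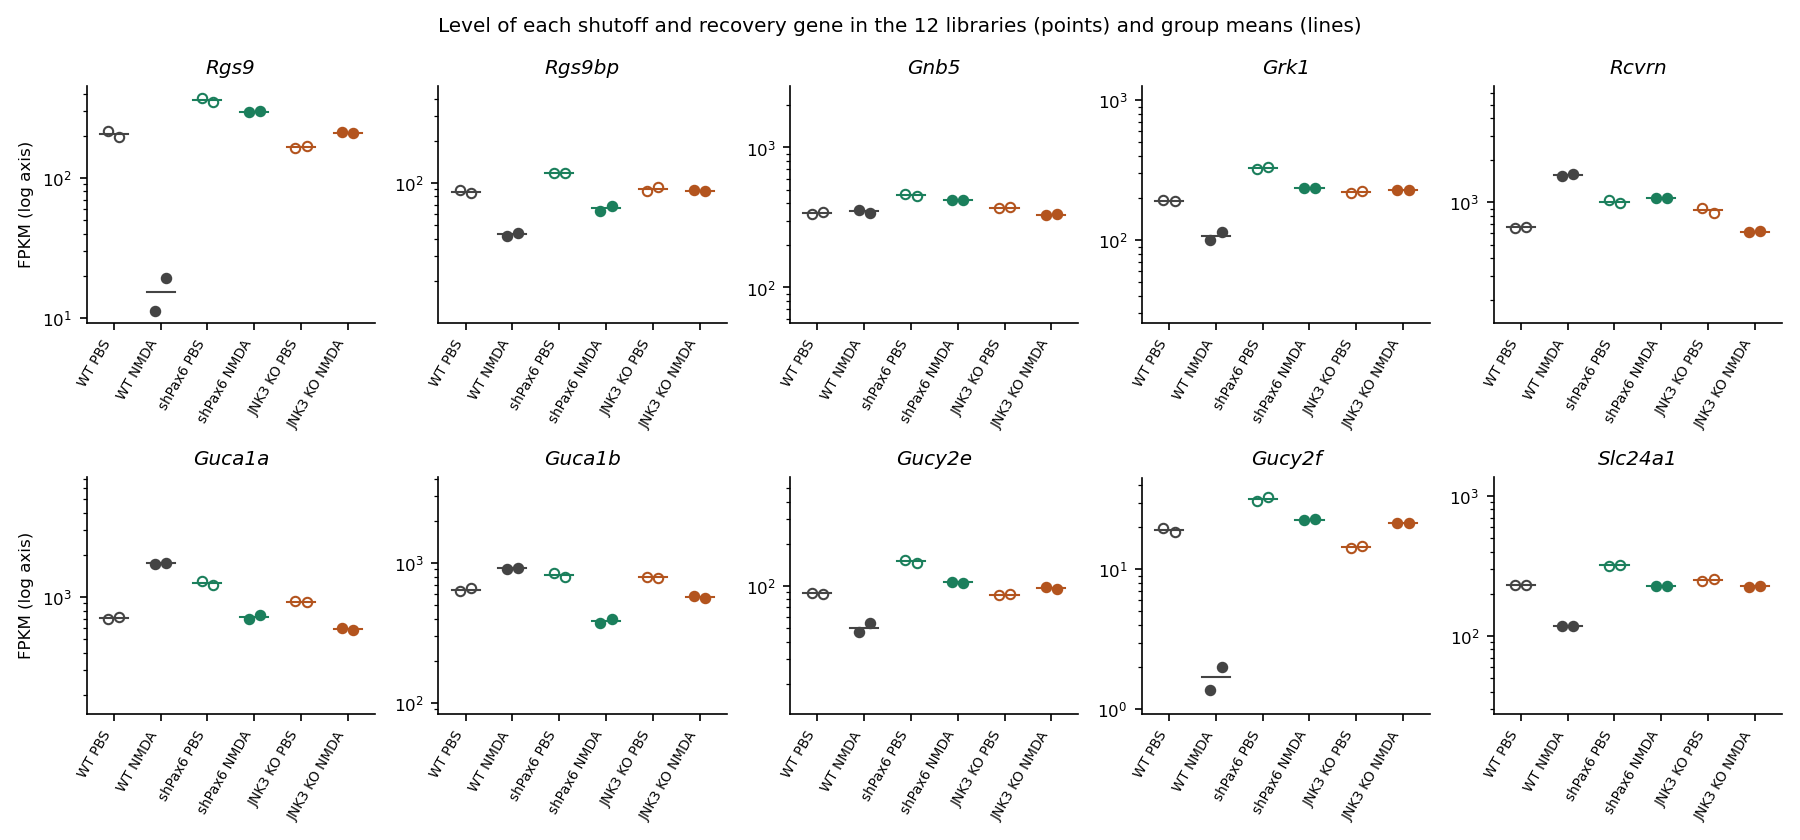
FPKM of the 10 genes on log axes that each span the same fold range, in the 12 libraries (open points PBS, filled points NMDA, grey WT, green shPax6, orange JNK3 KO; lines are the means of 2 libraries). Rgs9 and Gucy2f drop to 11.3 and 19.3 and to 1.37 and 2.02 FPKM in WT NMDA libraries, Rcvrn and Guca1a reach their highest values there, and Gnb5 is nearly level.

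In WT retinas, NMDA against PBS gave 3 members called higher and 6 called lower, with a median log2 difference of -0.82, where 26.0% of all genes tested were called higher and 33.8% lower and the median was -0.09. Genes were called where the p of limma, adjusted by Benjamini-Hochberg over all genes tested, was under 0.05, with no limit on fold. Since the choice of members used this contrast, the counts are a description. Apart from Rgs9, short members were higher or level and long members lower, by spliced length, the mean length of their transcripts weighted by FPKM. Guca1a (873 bases), Rcvrn (1040 bases) and Guca1b (1662 bases) were higher by 1.29, 1.23 and 0.50, whereas Slc24a1 (5213 bases), Rgs9bp (6590 bases), Grk1 (7274 bases) and Gucy2e (7422 bases) were lower, at -0.97, -1.01, -0.83 and -0.81.

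A trend on length was present across all genes of this contrast. The median log2 difference was 1.03 for the 2948 genes under 1 kb, 0.52 for 4526 genes of 1 to 2 kb, -0.32 for 5975 genes of 2 to 4 kb and -1.17 for 3003 genes over 4 kb. Across 16452 genes, which are not independent replicates, the difference and the length had a Spearman correlation of -0.565. After the length correction the 4 long genes had positive values, 0.14 for Slc24a1, 0.32 for Rgs9bp, 0.59 for Grk1 and 0.63 for Gucy2e, and the short genes Guca1a, Rcvrn and Guca1b were at 0.23, 0.31 and 0.13. On that scale 7 members were called higher and 3 lower, where 23.8% of all genes tested were called higher and 22.1% lower. Rgs9, of 2380 bases, and Gucy2f, of 8122 bases, were then the only members under -1, at -3.70 and -1.92, and Gnb5 was at -0.21. On TPM, which moves the median of all genes to -0.68, Guca1b changed sign to -0.07 and Gnb5 was at -0.54.

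Other genes of the pathway in WT retinas are given on deposited FPKM, without the length correction. Of 9 rod activation genes 5 were called higher and 2 lower (median 0.26). Over all genes tested, 26.0% were called higher and 33.8% lower. Pde6g, the inhibitory subunit of the phosphodiesterase, was at 1.19, Gnat1, rod transducin, at 0.41 and Gnb1, the transducin beta subunit, at -0.89. Of 9 cone activation genes 3 were called higher and 3 lower (median 0.06). Arrestin, Sag, was at 0.57 and cone arrestin, Arr3, at -0.69. Markers of other cells moved with this contrast: the summed FPKM of 6 neutrophil markers lay between 222 and 246 in WT PBS and between 1964 and 2006 in WT NMDA libraries, and of 5 erythrocyte markers between 97.3 and 107 and between 613 and 649.96. The 8 photoreceptor identity markers summed to 4754 to 4824 and 7130 to 7242. In the same libraries all genes summed to 541210 and 550912 in PBS and to 805627 and 820180 in NMDA, so the sum of all FPKM rose as well. Of the 8 identity markers 4 were called higher and 3 lower (median 0.13, range -2.08 to 1.25). Their part in the members' values was not tested.

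**Figure D2:**
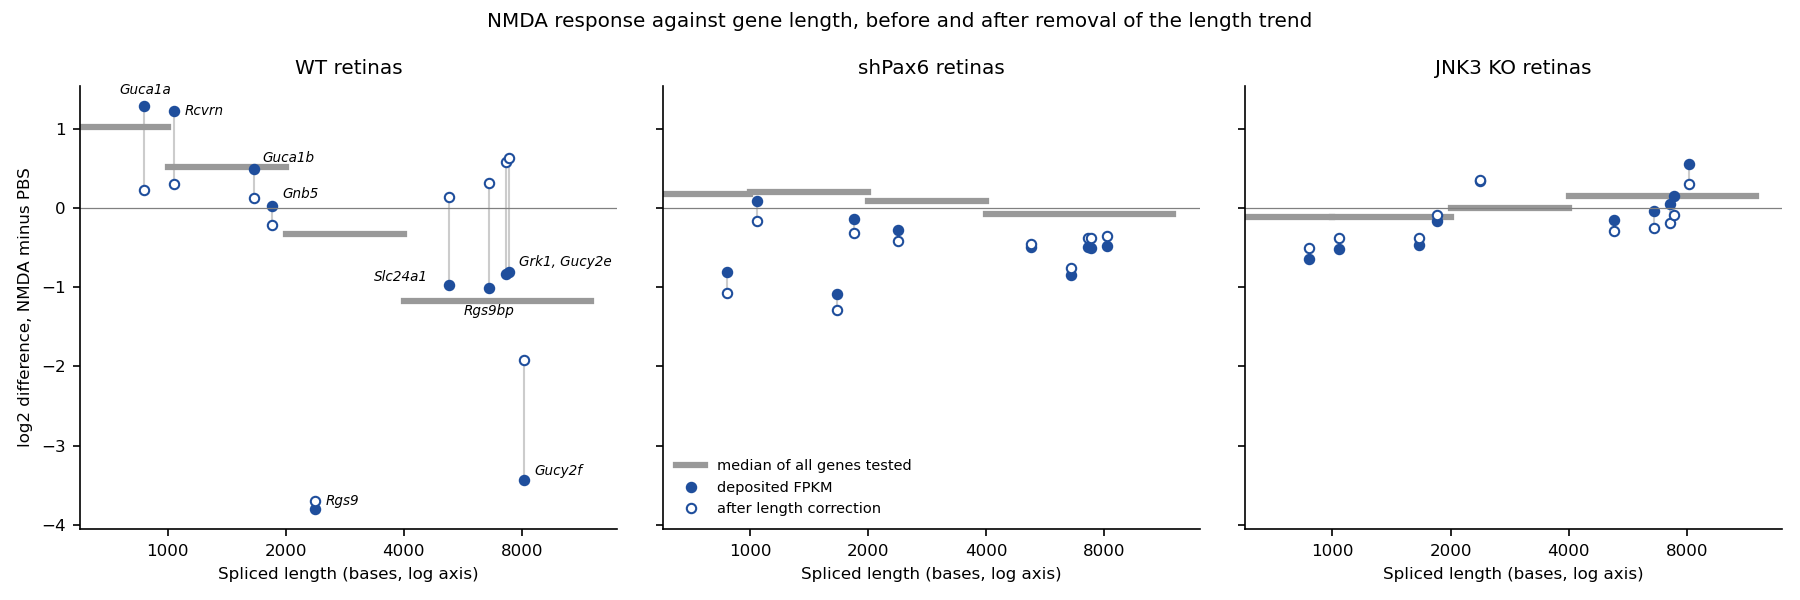
Log2 difference between NMDA and PBS (vertical axis) against spliced length in bases on a log axis, for the 10 genes in WT, shPax6 and JNK3 KO retinas; the genes stand at the same lengths in each panel. Filled points are deposited FPKM, open points the values after the length trend was removed, and grey bars the medians of all genes tested under 1 kb, 1 to 2 kb, 2 to 4 kb and over 4 kb; in WT retinas the bars run from 1.03 to -1.17, and Rgs9 and Gucy2f stay low after the correction.

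In shPax6 retinas, NMDA lowered 8 of the 10 members and raised none, where 11.0% of all genes tested were called lower and 19.1% higher. The median over members was -0.49 against 0.10 over all genes. The 8 were Guca1b, Rgs9bp, Guca1a, Gucy2e, Grk1, Slc24a1, Gucy2f and Gnb5, and Rgs9 and Rcvrn did not pass. Both NMDA libraries lay below both PBS libraries for 9 of 10 members, Rcvrn being the exception, and for 22.0% of all genes tested. All 9 rod activation genes fell too (median -0.71, Gnat1 -0.70, Pde6g -1.18), as did 8 of 9 cone activation genes (median -1.41, Opn1sw, the short-wave cone opsin, -3.51), Sag (-0.88) and Arr3 (-2.74), whereas Gnb3, the cone transducin beta subunit also made in bipolar cells, rose (0.58).

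The direction depended on the scale. With every library centred on those 9 genes, which moves the median of all genes from 0.10 to 0.77, 5 members were called higher and 3 lower, where 65.3% of all genes tested were called higher and 3.71% lower. Guca1b (-0.42), Rgs9bp (-0.18) and Guca1a (-0.14) kept their sign, Gnb5 (0.54), Slc24a1 (0.18), Grk1 (0.18), Gucy2e (0.17) and Gucy2f (0.19) changed it, and Rcvrn was at 0.76. The call for Gnb5 (log2 difference -0.13, limma adjusted p = 0.0382) was lost without the first shPax6 PBS library (adjusted p = 0.133), without either shPax6 NMDA library (0.0583 and 0.0633) and without either JNK3 KO NMDA library (0.0573 and 0.0577). Between these groups the summed FPKM of 7 microglia and macrophage markers went from 125 to 136 up to 427 to 443, of 6 RPE markers from 51.7 to 53.0 down to 3.99 to 6.21, with Best1 at 0 in a library of each group, and of 8 RGC markers from 156 to 158 down to 39.3 to 46.1. Their part in the members' values was not tested.

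In JNK3 KO retinas, NMDA lowered 5 members and raised 1, where 6.10% of all genes tested were called lower and 4.33% higher, with a median of -0.09 against -0.01 over all genes. Guca1a, Rcvrn and Guca1b fell with the values given above, Gnb5 (-0.16, standard error 0.04, limma adjusted p = 0.0336) and Slc24a1 (-0.15, standard error 0.04, limma adjusted p = 0.0436) fell on the deposited scale and were positive when centred on rod activation genes (0.18 and 0.19), and Gucy2f rose. The order by length was here the opposite of that in WT retinas: Spearman's correlation between a member's log2 difference and its length was 0.88 over the 10 genes, against -0.71 in WT and -0.05 in shPax6 retinas, and over all genes it was 0.229, -0.565 and -0.173. After the length correction Guca1a (-0.50), Rcvrn (-0.38) and Guca1b (-0.38) stayed lower, Slc24a1 (-0.29) and Rgs9bp (-0.25, limma adjusted p = 0.0229) were called lower too and none was called higher, where 5.18% of all genes tested were called lower and 3.43% higher, and Grk1 and Gucy2e changed sign to -0.19 and -0.08. Centred on rod activation genes, which moves the median of all genes to 0.32, all 10 members were called, 7 higher and 3 lower, where 27.5% of all genes tested were called higher and 2.54% lower. The lower ones were Guca1a (-0.31), Rcvrn (-0.17) and Guca1b (-0.13).

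The count in JNK3 KO retinas rests on single libraries. It fell from 6 to 3, Guca1a, Rcvrn and Guca1b, when any 1 of the 4 JNK3 KO libraries was left out, as Gnb5 (limma adjusted p from 0.112 to 0.159), Slc24a1 (from 0.0757 to 0.188) and Gucy2f were lost. Slc24a1 was also lost without either WT PBS library (0.0615 and 0.061). Of the other pathway genes, 7 of 9 rod activation genes fell and none rose (median -0.39, Gnat1 -0.39, Pde6g -0.43), as did 6 of 9 cone activation genes (median -0.49), Sag (-0.29), Arr3 (-1.36) and phosducin, Pdc (-0.81). The summed RGC markers went from 510 to 551 in PBS down to 124 to 127 in NMDA libraries, and the neutrophil markers from 164 to 176 down to 16.9 to 17.5. Their part in these values was not tested.

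**Figure D3:**
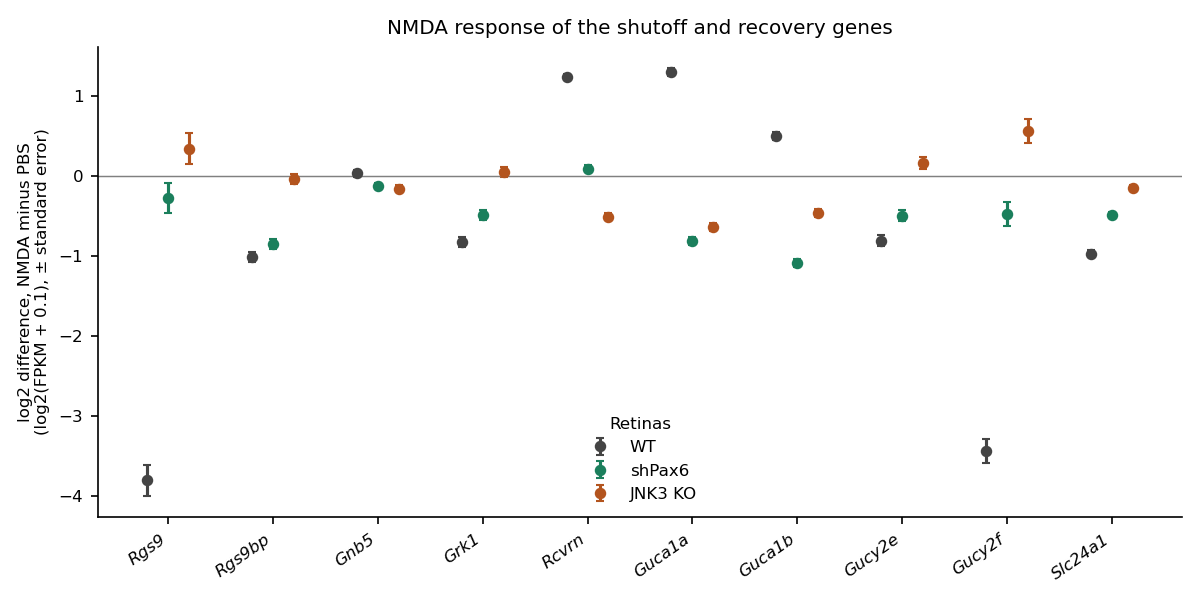
Log2 difference between NMDA and PBS for the 10 genes, on the scale log2(FPKM + 0.1), in WT (grey), shPax6 (green) and JNK3 KO (orange) retinas; points are estimates and bars ± 1 standard error. In shPax6 retinas 9 of 10 points lie below 0, in JNK3 KO retinas the points run from -0.64 (Guca1a) to 0.56 (Gucy2f), and in WT retinas from -3.80 (Rgs9) to 1.29 (Guca1a).

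The difference between the NMDA responses of shPax6 and JNK3 KO retinas, which shares no library with the WT contrast, was tested for each member. It was called for 7 of 10, with Rcvrn higher in shPax6 and 6 lower, where 12.1% of all genes tested were called higher and 5.62% lower. Rcvrn differed by 0.60 (standard error 0.06, limma adjusted p = 0.0004) and Rgs9bp by -0.81 (standard error 0.09, limma adjusted p = 0.000385), and both calls and that of Guca1b (-0.62, standard error 0.07, limma adjusted p = 0.000725) held in all 20 alternatives. Gucy2f (-1.05), Gucy2e (-0.66), Grk1 (-0.53) and Slc24a1 (-0.34) were also called lower in shPax6 retinas, but none of these 4 passed after the length correction (limma adjusted p from 0.0528 to 0.133), in which Guca1a (-0.57) and Gnb5 (-0.22) passed and 7.15% of all genes tested were called higher and 5.73% lower. Centred on rod activation genes, 3 members were called higher (Rcvrn, Gnb5 at 0.37 and Guca1a at 0.16) and 4 lower, where 29.5% of all genes tested were called higher and 2.43% lower. Rgs9 differed by -0.63 (95% interval -1.24 to -0.02, limma adjusted p = 0.146), and by limma adjusted p = 0.00241 without both WT NMDA libraries and 0.00268 and 0.0027 without the first or the second alone.

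On deposited FPKM the WT response stood furthest from the others for Rgs9, Gucy2f and the genes of calcium sensors. WT minus JNK3 KO, the difference of responses was -4.15 for Rgs9 (standard error 0.27), -4.00 for Gucy2f (standard error 0.22), 1.94 for Guca1a and 1.74 for Rcvrn (standard errors 0.07 and 0.06). WT minus shPax6, it was -3.52 for Rgs9, -2.95 for Gucy2f, 2.11 for Guca1a and 1.59 for Guca1b. These hold the contrast that was used to choose members and have no test. After the length correction Rgs9 was at -4.06 and -3.27 and Gucy2f at -2.22 and -1.57. WT minus JNK3 KO, Guca1a was then at 0.73, Rcvrn at 0.69 and Guca1b at 0.51, beside 0.78 for Grk1 and 0.71 for Gucy2e. WT minus shPax6, Guca1a was at 1.3, Guca1b at 1.42 and Rcvrn at 0.47, beside 1.07 for Rgs9bp and 1.01 for Gucy2e.

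Without NMDA, all 10 members were higher in shPax6 than in WT retinas. Each was called, where 5.36% of all genes tested were called higher and 11.2% lower, and the median log2 difference was 0.67 (range 0.34 to 0.83) against -0.06 over all genes. The largest values were those of Guca1a (0.83, standard error 0.05, limma adjusted p = 1.78e-05), Rgs9 (0.80, standard error 0.19, limma adjusted p = 0.0207), Grk1 (0.78, standard error 0.06, limma adjusted p = 6.25e-05), Gucy2e (0.76, standard error 0.07, limma adjusted p = 0.000136) and Gucy2f (0.74, standard error 0.15, limma adjusted p = 0.0112). Rcvrn (0.61), Slc24a1 (0.47), Rgs9bp (0.45), Gnb5 (0.43) and Guca1b (0.34) followed. The WT PBS libraries used here are also in the contrast that Rgs9 was partly chosen by. In shPax6 PBS libraries the 10 genes made up 0.859% and 0.889% of summed FPKM, against 0.583% in each WT PBS library.

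Most other genes of the pathway were higher too. All 9 rod activation genes were called higher (median 0.48, Gnat1 0.47), as were 8 of 9 cone activation genes (median 0.75, Opn1sw 1.65), Sag (1.06), Arr3 (0.86) and all 8 photoreceptor identity markers (median 0.52). Of the 5 other shutoff and calcium genes 4 were called higher and 1 lower, the exchanger gene Slc24a2 (-0.47), named after its value was seen. Centred on rod activation genes, which moves the median of all genes to -0.57, 5 members were called where 0.832% of all genes tested were called higher and 52.9% lower, with Grk1, Gucy2e, Guca1a and Rcvrn higher and Guca1b lower (-0.16), Rgs9 (0.30) and Gucy2f (0.24) did not pass, and Gnb5 (-0.08), Rgs9bp (-0.06) and Slc24a1 (-0.03) changed sign. The relatives of the members that work outside photoreceptors were not called higher: 4 of 6 R7 RGS partners fell and none rose (median -0.62, with Rgs11 and Gpr179 of bipolar cells at -0.60 and -0.63), and 4 of 13 tested paralogs fell and none rose (median -0.48, Slc24a3 at -0.53).

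Markers of other cells moved in this comparison as well. The 8 RGC markers summed to 536 to 555 FPKM in WT PBS and 156 to 158 in shPax6 PBS libraries (5 of 8 called lower), the 7 bipolar markers to 319.7 to 328 and 228 to 234 (4 of 7 lower), the 6 Müller glia markers to 801 to 805 and 1690.1 to 1764 (3 of 6 higher, 1 lower), and the 6 neutrophil markers to 222 to 246 and 8.08 to 9.76, with Retnlg and Ly6g at 0 in a library. Their part in the members' rise was not tested. The call for Rgs9 was lost without either WT PBS library (limma adjusted p = 0.0868 and 0.14) or either shPax6 PBS library (0.112 and 0.0624), and that of Gucy2f without either WT PBS library (0.0589 and 0.0863) or the second shPax6 PBS library (0.053). With no filter on low values neither was called (0.203 and 0.088).

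JNK3 KO and WT retinas differed less under PBS, in a comparison that uses the same WT PBS libraries. Rcvrn (log2 difference 0.40, standard error 0.04, limma adjusted p = 0.00656), Guca1a (0.38, standard error 0.05, limma adjusted p = 0.011) and Guca1b (0.29, standard error 0.05, limma adjusted p = 0.0364) were called higher and no member lower, where 1.10% of all genes tested were called higher and 0.407% lower. At an unadjusted p under 0.05, 6 were higher and 1, Gucy2f, was lower, against 9.16% and 5.97% of all genes tested. The 3 called are the shortest members, and all genes under 1 kb had a median of 0.17 in this comparison and those over 4 kb of -0.18. After the length correction 4 members were called higher, Rcvrn, Guca1a, Grk1 (0.47) and Slc24a1 (0.29), and none lower, where 0.395% of all genes tested were called higher and 0.213% lower. The median over members was 0.12 against 0 over all genes. Rgs9 was at -0.32 (95% interval -0.75 to 0.11, limma adjusted p = 0.505) and Gucy2f at -0.39 (95% interval -0.73 to -0.04, limma adjusted p = 0.269), both with JNK3 KO libraries below WT.

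The 3 calls under PBS depended on single libraries. None remained without the first WT PBS library or the first JNK3 KO PBS library, and 1 remained, Rcvrn, without the second of either. None was called with no filter on low values or with the spread of these 4 libraries alone. Of the other pathway genes, 5 of 9 rod activation genes (median 0.25), 1 of 9 cone activation genes, Sag (0.43) and Pdc (0.29) were called higher.

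Most members give 1 transcript or a leading one, and the shares of transcripts, estimated by the authors' software, add a difference that gene totals hide. Of 27 annotated transcripts, 5 members have only 1. In Gnb5 the leading transcript was Gnb5-202 (1803 bases, 13 exons), at 219.7 and 219 FPKM in WT PBS and 87.3 and 67.3 in WT NMDA libraries, while Gnb5-206 (2105 bases, 11 exons) was at 99.6 and 110.7 and at 254 and 259. The gene total, nearly level on deposited FPKM, was thus made of transcripts whose estimates moved in opposite directions. Gnb5-202 was 24.5% and 19.7% of the gene in WT NMDA libraries and between 61.0% and 68.4% in the other 10. The WT NMDA libraries are those that stood apart in summed FPKM and in their trend on gene length.

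Gucy2e-202 (4415 bases) was 0.2% and 1.6% of Gucy2e FPKM in WT NMDA libraries and between 13.5% and 29.7% in the other 10, the rest being mostly Gucy2e-201 (8331 bases). The retained-intron transcript Grk1-203 was 0.2% and 0.7% of Grk1 against 3.5% to 9.1% elsewhere, and the retained-intron transcript Gnb5-203 was 0.1% and 0.2% of Gnb5 against 1.5% to 2.4%. In Rgs9, Rgs9-204 (2313 bases, 17 exons) fell with the gene, from 189 and 173 FPKM in WT PBS to 7.57 and 15.4 in WT NMDA libraries, and stayed the leading transcript. These shares were not tested.

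**Figure D4:**
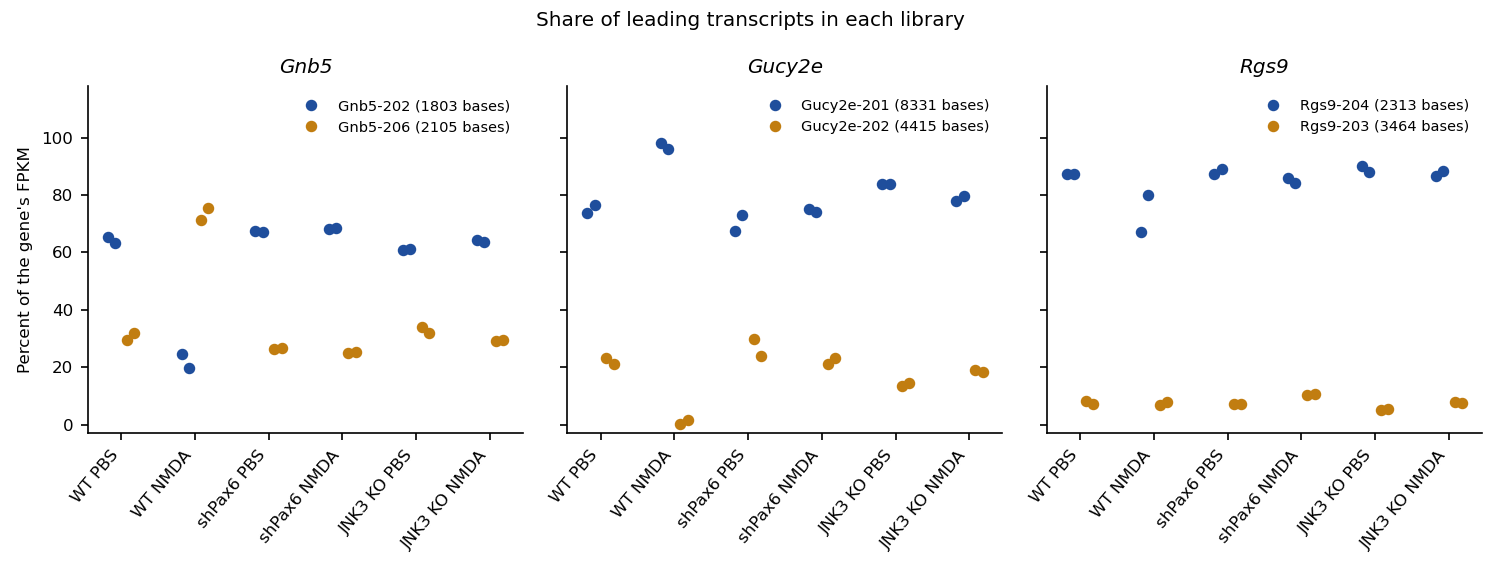
Percent of a gene's FPKM held by the 2 transcripts shown in each panel, for Gnb5, Gucy2e and Rgs9, in the 12 libraries (points, 2 per group). Gnb5-202 and Gnb5-206 exchange places in WT NMDA libraries, at 24.5% and 19.7% against 71.4% and 75.6%, Gucy2e-202 falls to 0.2% and 1.6%, and Rgs9-204 leads in every library.

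Genes outside the list whose level over the 12 libraries was most like that of a member were sought among 7704 protein-coding genes with a mean above 10 FPKM. Pearson's r of log2(FPKM + 0.1), used as a measure of likeness only, was 0.997 between Rgs9 and Rdh8, the outer segment retinol dehydrogenase, 0.996 with Herc3 and 0.994 with Lrit3. For Gucy2e the nearest were Klhl23, the cone and rod channel subunit Kcnv2 and Elovl4 (0.979, 0.977 and 0.976), and for Rcvrn they were Bin1, Maf1 and Cdk2ap2 (0.979, 0.976 and 0.975). The 12 libraries fall into groups, and the 2 WT NMDA libraries share their trend on length.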

How the data were processed

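RNA was measured in 12 libraries of mouse retina, 2 in each of 6 groups taken from the labels. Per the labels, the authors prepared poly(A) libraries and used STAR 2.7.1a, RSEM 1.3.3, edgeR 3.36.0 and R 4.1.0 with GRCm38.p6. The authors deposited FPKM per gene and per transcript, which are normalized for length and library size, and so the count test of the study could not be repeated. These values do not show the depth of a library, so its counting error is unknown.

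The members and lists were chosen with earlier results of these data known. Genes with a mean above 1 FPKM in at least 1 group were kept (16471 of 55487), put on the scale log2(FPKM + 0.1), on which changes of low genes are understated, and fitted with limma 3.58.1 in R 4.3.3 (lmFit, eBayes with an intensity trend) as 6 group means with 6 residual degrees of freedom. P-values were adjusted over all genes tested by the Benjamini-Hochberg method, and intervals are 95%. The test was also run on simulated data with normal noise independent between libraries, and its outcome is not given here. Spliced lengths came from GENCODE M21 for 99.53% of genes. The length correction removed from each library the lowess trend (span 0.3) of its deviation on log2 length. Named genes were the members, at most the 4 genes with the highest mean FPKM of each list, Sag, Arr3, Pax6, Mapk10 and the 3 genes most like Rgs9, Rcvrn and Gucy2e. Gnb5, Gucy2e and Rgs9 were chosen for the plot of transcripts after their values were seen. Alternatives were a pseudocount of 1, no filter, TPM, the length correction, centring on rod activation genes, a replicate block, the spread of the compared groups alone and each of 12 libraries left out; a fit without both WT NMDA libraries was added after seeing the data. Figures were drawn with matplotlib 3.10.9.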

Additional observations from a re-analysis of the deposited data

Results flagged for a closer look

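The NMDA responses of shPax6 and JNK3 KO retinas differed by limma's test of the difference for 7 members, 1 called higher and 6 lower. Over all genes tested, 12.1% were called higher and 5.62% lower. On the log2 scale, shPax6 minus JNK3 KO, the difference was -0.81 for Rgs9bp, -0.53 for Grk1, 0.60 for Rcvrn, -0.62 for Guca1b, -0.66 for Gucy2e, -1.05 for Gucy2f and -0.34 for Slc24a1. Grk1, Gucy2e, Gucy2f and Slc24a1 did not pass after the length correction (limma adjusted p from 0.0528 to 0.133).

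For 7 members every NMDA library of WT retinas lay on the opposite side of the PBS libraries from those of JNK3 KO retinas, as was so for 33.4% of all genes tested. The difference of the responses, WT minus JNK3 KO, was -4.15 for Rgs9, -0.88 for Grk1, 1.74 for Rcvrn, 1.94 for Guca1a, 0.97 for Guca1b, -0.97 for Gucy2e and -4.00 for Gucy2f. After the length correction Grk1 and Gucy2e were at 0.78 and 0.71. Against shPax6 retinas the same was seen for Guca1a (2.11) and Guca1b (1.59), and for 15.7% of all genes tested. These differences were not tested, since the WT contrast was used to choose members.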

How the results depend on the processing

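Of 50 tested results for single members, 34 were called, and 13 of these kept their direction and their call in each of 20 alternatives. Values that changed sign, and some of the changes in counts and medians, are given here as log2 differences or counts. Calls gained or lost for single members are given only in part. The cause was not tested.

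Centred on rod activation genes, in shPax6 retinas after NMDA the values were 0.39 for Rgs9, 0.54 for Gnb5, 0.18 for Grk1, 0.17 for Gucy2e, 0.19 for Gucy2f and 0.18 for Slc24a1 (median over members 0.18); in JNK3 KO retinas 0.30 for Rgs9bp, 0.18 for Gnb5 and 0.19 for Slc24a1 (median 0.24, 10 called); in shPax6 against WT under PBS -0.06 for Rgs9bp, -0.08 for Gnb5, -0.16 for Guca1b and -0.03 for Slc24a1 (5 called); and in JNK3 KO against WT under PBS -0.13 for Rgs9bp, -0.07 for Gnb5 and -0.06 for Slc24a1 (median -0.07). Guca1a was at 0.16 for shPax6 minus JNK3 KO. Gnb5 was at -0.31 in WT retinas, -0.86 for WT minus shPax6 and -0.49 for WT minus JNK3 KO, with medians over members of -1.26 and -1.53.

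After the length correction, WT values were 0.32 for Rgs9bp, -0.21 for Gnb5, 0.59 for Grk1, 0.63 for Gucy2e and 0.14 for Slc24a1 (median 0.18). WT minus shPax6 was 1.07 for Rgs9bp, 0.96 for Grk1, 1.01 for Gucy2e and 0.59 for Slc24a1 (median 0.77), and WT minus JNK3 KO was 0.57 for Rgs9bp, -0.11 for Gnb5, 0.78 for Grk1, 0.71 for Gucy2e and 0.43 for Slc24a1 (median 0.54). Rcvrn was at -0.16 in shPax6 retinas (limma adjusted p = 0.0105), Grk1 at -0.19 and Gucy2e at -0.08 in JNK3 KO retinas, Gucy2e at 0.23 in JNK3 KO against WT under PBS and Gnb5 at -0.22 for shPax6 minus JNK3 KO.

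On TPM, Gnb5 was at -0.54 and Guca1b at -0.07 in WT retinas, Rgs9bp at -0.01 in JNK3 KO against WT under PBS, and Gnb5 at -0.04 for shPax6 minus JNK3 KO, -0.36 for WT minus shPax6 and -0.40 for WT minus JNK3 KO; the last pair of contrasts had medians of -0.76 and -1.44.

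Of the 42 genes tested in 5 other lists (rod activation, cone activation, other shutoff, R7 RGS partners and paralogs outside photoreceptors), the numbers called were 31 in WT, 34 in shPax6 and 22 in JNK3 KO retinas after NMDA, 30 and 9 in shPax6 and JNK3 KO against WT under PBS, and 25 for shPax6 minus JNK3 KO. With no filter they were 9 in JNK3 KO retinas after NMDA, 16 and 1 under PBS and 13 for shPax6 minus JNK3 KO; with the spread of the compared groups alone 16 in shPax6 retinas after NMDA and 15 and 0 under PBS; and for JNK3 KO against WT under PBS 3 on TPM, 5 after the length correction and 5 when centred. No member was called in JNK3 KO against WT under PBS (0) with no filter or with the spread alone.

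Leaving out 1 library at a time, where a lone library is assumed to vary like the other groups, members called ranged from 3 to 7 in JNK3 KO and 6 to 9 in shPax6 retinas after NMDA, 0 to 3 and 8 to 10 under PBS, and 7 to 8 for shPax6 minus JNK3 KO. Genes of the 5 other lists called ranged from 12 to 23 in JNK3 KO retinas after NMDA and 1 to 8 in JNK3 KO against WT under PBS. Medians ranged from -0.31 to -0.17 for WT minus shPax6 and -0.90 to -0.80 for WT minus JNK3 KO. Rgs9bp was at 0.01 in JNK3 KO retinas without the second PBS library.

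Deviations of same-numbered libraries had correlations between -0.10 and 0.09, so no shift shared by replicate number was seen across all genes. Such correlations cannot tell whether the numbers pair the samples. With the replicate number as a block, 3 members were called in JNK3 KO and 7 in shPax6 retinas after NMDA. Against WT under PBS, 2 were called in JNK3 KO and 10 in shPax6 retinas, and 7 were called for shPax6 minus JNK3 KO.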
